A study of Saccharomyces cerevisiae with 268 samples.

Results

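Budding yeast, Saccharomyces cerevisiae, takes up amino acids and small peptides through permeases of the plasma membrane, and 9 genes for such permeases are described here across strains that lack a transcription factor or a related regulator. The genes were chosen by name, not by a measured value: TAT1 (YBR069C), TAT2 (YOL020W), BAP2 (YBR068C), BAP3 (YDR046C), AGP1 (YCL025C), GNP1 (YDR508C), DIP5 (YPL265W), HIP1 (YGR191W) and PTR2 (YKR093W). They are 9 of the 5615 genes tested, out of 5655 named genes among 6419 features in the deposited table. All 9 were found and tested. BAP2 and TAT1 are direct neighbours on chromosome II, and the other 7 lie apart from each other.

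The study profiled strains deleted for 1 gene each, 1 column per strain, with the aim of finding regulatory targets. On each array the Cy5 channel held total RNA of a strain deleted for 1 gene and the Cy3 channel total RNA of wild type, both from mid-log cultures. A strain is named here by the gene it lacks. The comparison sets were 5 strains lacking subunits of the SWI/SNF chromatin remodeller (SWI3, SNF2, SNF5, SNF6, SNF11), 5 lacking subunits of the SAGA coactivator (ADA2, NGG1, SPT3, SPT20, HFI1), 5 lacking parts of the RPD3L histone deacetylase (RPD3, SIN3, UME1, PHO23, SDS3), 3 of the Mediator tail (SIN4, GAL11, PGD1), 3 of the Mediator kinase module (SSN3, SRB8, SSN2), 3 lacking factors of amino acid sensing (STP1, STP2, DAL81) and 2 lacking GATA activators of nitrogen use (GLN3, GAT1). All strains outside these 26 formed the reference group. The sources used here do not name the strain background or the medium, nor how strains without an essential gene such as ABF1, RAP1, HSF1 or MCM1 were grown.

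Each value is a score, higher where the deletion strain exceeded wild type, on a scale whose log base is not given. Scores ran from -8.35 to 8.05 over the whole table. A score says how far a gene stood from wild type on 1 array, so it gives no order of abundance between genes. With 1 column for each deletion, a value in 1 strain has no replicate and no test. It is given with its rank, and it is called low or high when it lay 2 or more score units from that gene's own median over strains. The strains of a set stand in for replicates although they are different genotypes. Nothing in the labels says how many cultures lie behind a column, so a p-value measures only the spread between columns, which may be partly technical.

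Some columns stand apart. In 61.6% of columns the deleted gene lay in the lowest 5% of its own values, but in 14 of 263 it lay in the highest 20%. NGG1, SPT3, SPT20, SSN3, RPD3, SRB5, ABF1 and MCM1 are among those 14 and are named as labels only. So are RPN4, DAL80 and TAF14, whose deleted gene stood at 0.15, 0.51 and 0.33, above its medians of 0.07, 0.08 and -0.26 in the other columns. In 31 columns at least 2 of 4 markers (MET17, of sulfur assimilation, and the alpha-specific genes STE3, MF(ALPHA)1 and MF(ALPHA)2) were at -2 or lower, and in 29 columns at least 3 of 5 a-specific genes were (STE2, MFA1, BAR1, STE6 and AGA2). In 6 columns the genes of 1 chromosome were shifted by at least 1 score unit, and 6 columns were written with 6 significant digits. Of 35778 pairs of columns, 39 correlated below -0.3 across genes, the lowest at -0.42. The direction was kept, since the labels give every array the same dyes.

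Yeast senses amino acids outside the cell through a plasma membrane complex, Ssy1, Ptr3 and Ssy5, which cuts the factors Stp1 and Stp2 so that they enter the nucleus and, with Dal81, switch on permease genes. Other regulators act on single permeases: Leu3 on BAP2 and the genes of branched-chain amino acid synthesis, the repressor Cup9 on PTR2, and the GATA factors Gln3 and Gat1 on genes held down by good nitrogen sources. Tat1 and Tat2 carry aromatic amino acids, Bap2 and Bap3 branched-chain amino acids, Agp1 a broad range, Gnp1 glutamine, Dip5 glutamate and aspartate, Hip1 histidine, and Ptr2 di- and tripeptides.

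The 9 genes differed widely in how much they varied. PTR2 varied most: its score ran from -6.02 to 5.22 around a median of -1.59 (SD 2.06, n = all strains), an SD above that of 99.4% of genes. DIP5 ran from -5.54 to 4.13 around -0.07 (SD 1.39). TAT1 ran from -7.11 to 3.94 around -0.37 (SD 1.35). These, with BAP2, had SDs above those of 94.8% or more of genes, where the median gene had an SD of 0.718.

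BAP2 ran from -6.23 to 2.13 around -0.52 (SD 1.34, n = 267). AGP1 ran from -2.67 to 6.06 around -0.19 (SD 1.22). The tails of these genes thus pointed in different directions: TAT1 was called low in 18 strains and high in 2, BAP2 low in 16 and high in 5, while AGP1 was low in 8 and high in 14. DIP5 had 17 low and 14 high strains, and PTR2 17 low and 52 high.

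The other 4 permeases were steadier. HIP1 ran from -4.22 to 1.44 around -0.18 (SD 0.79), GNP1 from -2.51 to 2.35 around 0.11 (SD 0.75, n = 265), TAT2 from -3.78 to 1.20 around -0.74 (SD 0.72) and BAP3 from -1.68 to 2.94 around 0.30 (SD 0.70, n = 265). BAP3 was called low in 0 strains and high in 1, TAT2 low in 5 and high in 0, HIP1 low in 9 and high in 0, and GNP1 low in 3 and high in 1. Relative to wild type most strains had less TAT2 and PTR2 RNA, with 89.6% and 76.9% of scores below 0. BAP3 was the reverse, with 27.2% below 0.

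**Figure D1:**
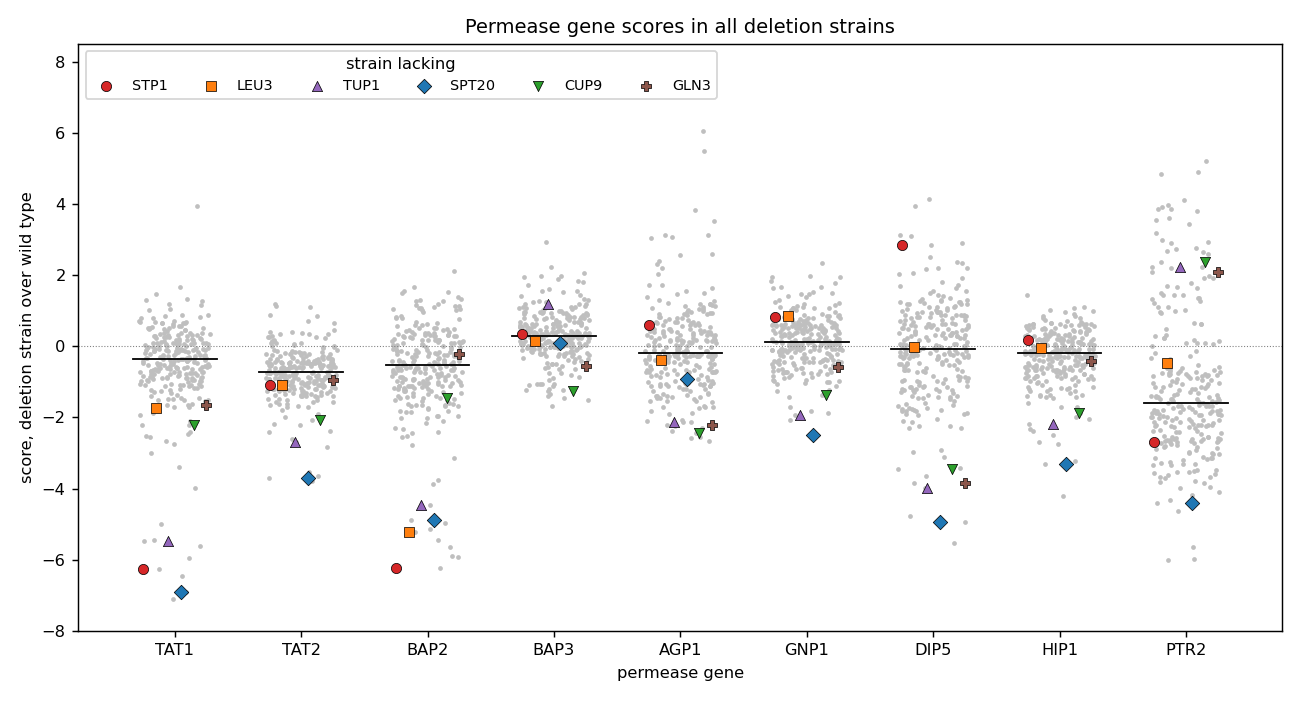
Score of each permease gene (y axis, score units, deletion strain over wild type) in all deletion strains (grey points), with the median as a black bar and 6 strains picked out. The low tails of TAT1 and BAP2 reach -7.11 and -6.23, AGP1 and PTR2 reach upward to 6.06 and 5.22, and the STP1 strain is near the bottom for TAT1 and BAP2 and near the top for DIP5.

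Over all 2405 values of the 9 genes, 93 were called low (3.87%) and 89 high (3.70%). Over all tested genes and columns pooled, 1.32% of values were called low and 1.71% high. Of the 93 low values, 47 fell in the 26 strains of the sets, and of the 89 high values 12 did. Several of these columns, SNF6, SNF2 and SWI3 among them, also had many low values over all genes. The counts were not compared with the share of all genes' calls in the same columns, so neither is read as particular to the permease genes. In 62.7% of strains no permease gene was called. In 13 strains at least 3 of the 9 were low. Only in RSC1, which lacks a subunit of the RSC remodeller, were 3 high (AGP1 at 2.56, BAP2 at 2.13 and PTR2 at 1.65), against 2.18% of all genes in that column. In this column 4 of the 5 a-specific genes were low.

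Of those 13 strains, 5 lacked SWI/SNF subunits, 3 were labelled as SAGA strains, 1 was of the Mediator tail and 4 lay outside the sets. In the column labelled SPT20, 7 of 9 were low, where 11.1% of all genes in that column were. The SNF6 strain had 6 of 9 low (14% of all genes) and SWI3 6 of 9 (9.52%). TUP1, which lacks a general corepressor, had 5 of 9 low (9.73% of all genes low, 6.41% high). In columns with few low genes in all, the counts were smaller: SNF11 had 3 of 9 low (BAP2, DIP5 and PTR2) where 1.17% of genes were, and the column labelled RPN4, the activator of proteasome genes, 3 of 9 (TAT1, DIP5 and PTR2) where 1.5% were. In the column labelled RPN4, 4 of the 5 a-specific genes were low.

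Without SWI/SNF subunits most of these permease genes were low. Relative to the other strains, 6 of 9 fell (TAT1, BAP2, HIP1, TAT2, GNP1 and AGP1), 0 rose, and all 9 differences were negative. Of all genes tested, 21.2% fell and 11.3% rose in this comparison. The median difference was -1.67 for the permease genes and -0.07 for all genes. The steepest were TAT1 and BAP2, the aromatic and branched-chain amino acid permease genes on chromosome II.

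TAT1 stood at -7.11 in SWI3, -6.46 in SNF6, -5.63 in SNF5, -5.46 in SNF2 and -1.32 in SNF11. The first 4 were among the 8 lowest of all strains, and SNF11 lay within 1 score unit of the median. The set mean was -5.19 ± 2.27 (SD, n = 5) against -0.41 ± 0.94 (SD) over the other strains, a difference of -4.79 ± 0.49 (SE; limma adjusted p = 2.00e-16). BAP2 stood at -5.92 in SWI3, -5.89 in SNF6, -5.44 in SNF5, -3.75 in SNF2 and -2.56 in SNF11, so all 5 were called low. Its difference was -4.21 ± 0.51 (SE; set mean -4.71 ± 1.49, SD, n = 5; limma adjusted p = 1.83e-12).

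The histidine permease gene HIP1 stood at -4.22 in SNF6, -2.76 in SWI3, -2.48 in SNF2, -2.39 in SNF5 and -0.52 in SNF11, a difference of -2.25 ± 0.32 (SE, n = 5; limma adjusted p = 1.54e-09). TAT2 stood at -3.78 in SNF2, -3.65 in SNF6, -3.53 in SWI3, -2.41 in SNF5 and -0.99 in SNF11, a difference of -2.17 ± 0.29 (SE, n = 5; limma adjusted p = 8.92e-11). In both genes SNF11 was the highest of the 5. GNP1 stood at -2.08 in SWI3, -1.82 in SNF5, -1.71 in SNF2, -1.42 in SNF6 and -0.33 in SNF11, a difference of -1.67 ± 0.32 (SE, n = 5; limma adjusted p = 4.37e-06).

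AGP1 moved less, at -2.58 in SNF2, -2.25 in SNF6, -1.38 in SNF5, -1.05 in SNF11 and -0.49 in SWI3, a difference of -1.51 ± 0.53 (SE, n = 5; limma adjusted p = 0.0194). Its call was lost with quantile normalization (-0.84, adjusted p = 0.332), without SNF2 (adjusted p = 0.111) and without SNF6 (adjusted p = 0.0913). BAP3 differed by -0.34 ± 0.32 (SE, n = 5; limma adjusted p = 0.442), with 2 of 5 strains above the median of the other strains.

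DIP5 and PTR2 did not behave alike in these 5 strains. DIP5 stood at -4.79 in SWI3, -2.10 in SNF11, -2.05 in SNF6, -0.99 in SNF2 and 3.11 in SNF5, where it was the fourth highest of all strains (difference -1.32 ± 0.60, SE, n = 5; limma adjusted p = 0.0765). PTR2 stood at -5.98 in SNF5, -4.31 in SNF6, -3.83 in SNF11 and -3.17 in SNF2, and at 3.97 in SWI3, the fifth highest of all (difference -1.53 ± 0.91, SE, n = 5; limma adjusted p = 0.192). Each gene thus had 1 strain at the opposite end, and neither passed the test. The SWI3 column had the genes of chromosome III shifted by 1.17, where AGP1 lies but PTR2 does not.

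In 4 of the 5 SWI/SNF strains (all but SNF11) at least 4 of the 5 a-specific genes were at -2 or lower, and the part of these markers in the permease result was not tested. Leaving out columns with such markers leaves SNF11 alone, the strain that stood apart for TAT1, so the set cannot be examined without them. With quantile normalization 5.13% of all genes rose and 4.22% fell, and 5 permease genes fell, with TAT1 at -1.82 and BAP2 at -1.67.

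SAGA strains also had lower permease scores, but only 3 of the 5 columns carried them. Of the 9 genes 6 fell (TAT1, DIP5, BAP2, TAT2, HIP1 and GNP1) and 0 rose, where 6.75% of all genes fell and 3.42% rose. The median difference was -1.06 for the permease genes and -0.05 for all genes. All 9 differences were negative.

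TAT1 stood at -6.92 in the column labelled SPT20, -5.94 in HFI1 and -3.40 in the column labelled SPT3, but at -0.90 in ADA2 and 0.07 in the column labelled NGG1. The difference was -3.01 ± 0.49 (SE; set mean -3.42 ± 3.05, SD, n = 5; limma adjusted p = 4.29e-06). This SE and p rest on the pooled spread, not on the SD of 3.05 within the set. BAP2 stood at -4.90 in the column labelled SPT20, -3.87 in HFI1, -3.14 in that labelled SPT3, -1.10 in that labelled NGG1 and 0.23 in ADA2, a difference of -2.05 ± 0.51 (SE, n = 5; limma adjusted p = 0.00252). In both genes HFI1 and the columns labelled SPT20 and SPT3 were called low, and ADA2 and the column labelled NGG1 were not.

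DIP5, the glutamate and aspartate permease gene, stood at -4.93 in the column labelled SPT20, -3.65 in HFI1, -2.30 in that labelled SPT3, -0.22 in ADA2 and 0.07 in that labelled NGG1, a difference of -2.16 ± 0.60 (SE, n = 5; limma adjusted p = 0.00792). TAT2 stood at -3.72 in the column labelled SPT20, -2.84 in HFI1, -1.28 in that labelled SPT3, -1.08 in ADA2 and -1.04 in that labelled NGG1 (difference -1.29 ± 0.29, SE, n = 5; limma adjusted p = 7.17e-04). HIP1 and GNP1 differed by -1.06 ± 0.32 and -1.02 ± 0.32 (SE, n = 5; limma adjusted p = 0.0190 and 0.0207), and the column labelled SPT20 held the lowest of the 5 values in both. AGP1 was at 2.31 in HFI1 and between -1.12 and -0.30 in the other 4, and PTR2 at -4.40 in the column labelled SPT20 and 1.01 in ADA2, and neither passed the test (adjusted p = 0.925 and 0.923).

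The SAGA count fell to 1 of 9 without the column labelled SPT20, to 1 without HFI1, and to 1 without columns in which the deleted gene was high, which leaves ADA2 and HFI1. It fell to 0 with quantile normalization, where 0.748% of all genes rose and 0.196% fell. The a-specific genes were low in HFI1 and in the column labelled SPT20 too (4 of 5 each), and 3 of the 4 alpha and MET17 markers in the column labelled SPT3, and their part was not tested. Without columns with low markers, which leaves ADA2 and the column labelled NGG1, 0 of 9 were called and TAT1 differed by -0.12. Compared directly, SWI/SNF and SAGA strains differed in 0 of 9 permease genes by limma (0.677% of all genes higher and 2.17% lower), with 4 at an unadjusted p under 0.05. The largest difference was that of BAP2, -2.16 ± 0.71 (SE, n = 5 and 5; adjusted p = 0.0748). A p that misses the threshold does not show that the sets act alike.

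**Figure D2:**
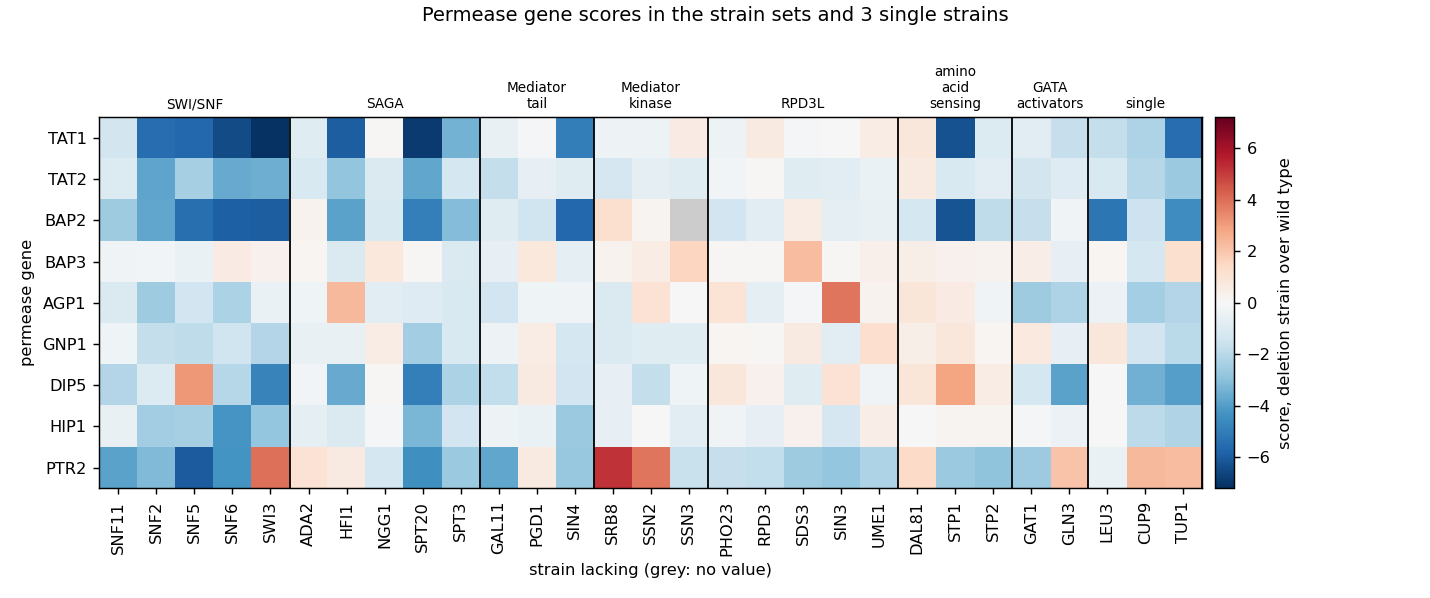
Score of each permease gene (rows; colour, score units, deletion strain over wild type) in the 26 strains of the 7 sets and in LEU3, CUP9 and TUP1. TAT1 and BAP2 are both deep blue in SNF2, SNF5, SNF6, SWI3, HFI1, SIN4, STP1, TUP1 and the column labelled SPT20, and the darkest red cell is PTR2 in SRB8 (5.22). Grey marks a missing value.

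**Figure D3:**
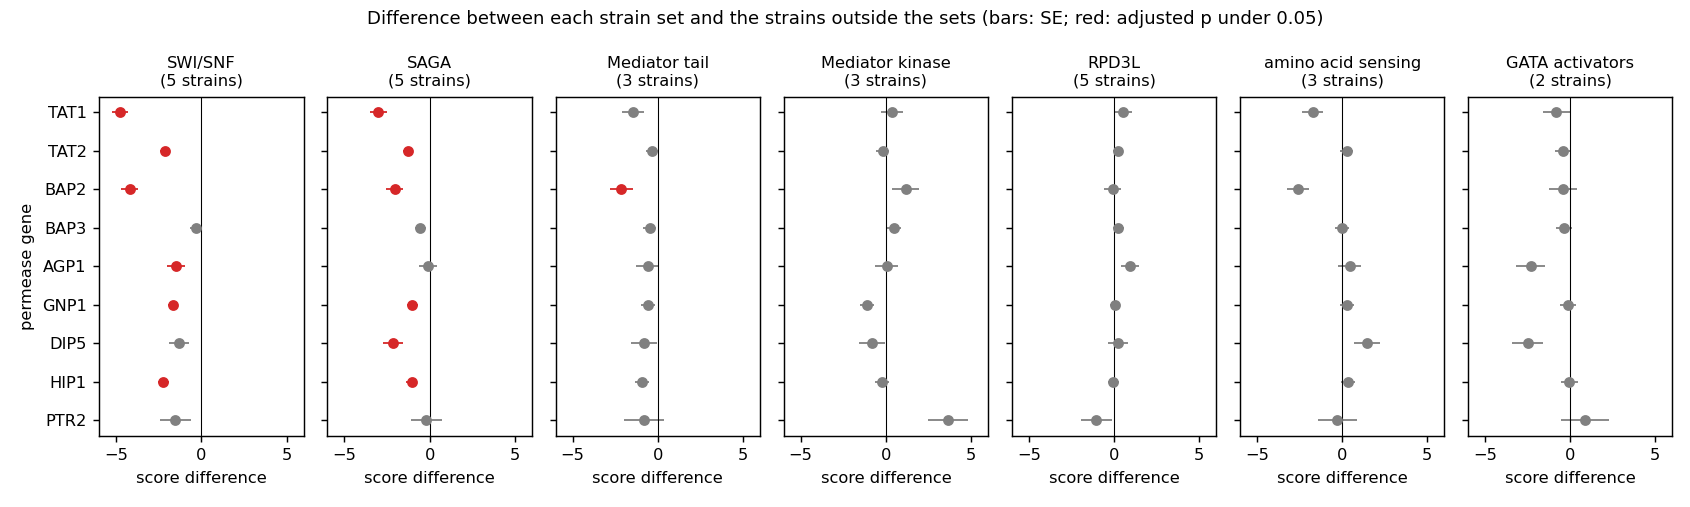
Difference in score between each strain set and the other strains for the 9 permease genes (x axis, score units; bars, SE; red, adjusted p under 0.05 by limma). SWI/SNF and SAGA each have 6 red points, the Mediator tail 1, and the other 4 sets none.

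The genes TAT1 and BAP2 were often low in the same strains. Of the 18 strains low for TAT1, 12 were low for BAP2, which is 66.7% of the TAT1 list and 75% of the 16 strains low for BAP2. All 9 strains low for HIP1 were on both lists. Of the 12, 9 were strains of the sets, and the others were CST6, HSF1 and TUP1. In CST6, which lacks a bZIP activator, BAP2 stood at -4.98, TAT1 at -3.98 and HIP1 at -3.23. HSF1 had 4 of 9 low, led by BAP2 at -5.12 (10.5% of all genes low), and 2 high, AGP1 at 6.06 and DIP5 at 2.90 (4.33% of all genes high). In HSF1 and CST6, 4 of the 5 a-specific genes were low, and their part was not tested.

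The gene on the other side of this pair did not follow it in every strain. TIP1, a cell wall gene named after its values were seen, is the other direct neighbour of BAP2. Without SWI/SNF it fell, by -5.03 ± 0.71 (SE, n = 5; limma adjusted p = 6.43e-10). In HFI1 and in the column labelled SPT20, where BAP2 and TAT1 were low, TIP1 stood at 2.73 and 3.28, and it was at 3.81 in SIN4 and 3.23 in TUP1. TIP1 differed between SWI/SNF and SAGA by -6.48 ± 0.99 (SE; limma adjusted p = 6.07e-07). Across strains it correlated with BAP2 at Spearman's rho 0.19 (n = 267) and with TAT1 at 0.07 (all strains).

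The Mediator complex links activators to RNA polymerase. In its tail set 1 of 9 permease genes fell, where 4.15% of all genes fell and 3.72% rose, and 0 rose. BAP2 stood at -5.66 in SIN4, -1.41 in PGD1 and -0.85 in GAL11, a difference of -2.14 ± 0.66 (SE, n = 3; limma adjusted p = 0.0271). SIN4 alone set it apart, and without SIN4 the difference was -0.63 (adjusted p = 0.833). SIN4 was also at -4.99 for TAT1 and -2.69 for HIP1, both called low, whereas GAL11 and PGD1 were at -0.51 and -0.08 for TAT1. In the SIN4 column 9.67% of all genes were low. The deleted gene itself stood at 0.03 there, against a median of 0.31 in the other columns. TAT1 over the 3 strains differed by -1.45 ± 0.64 (SE, n = 3; adjusted p = 0.139).

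PTR2, the peptide transporter gene, was high in several Mediator strains. In the kinase module set it stood at 5.22 in SRB8, 3.87 in SSN2 and -1.60 in the column labelled SSN3. The difference was 3.63 ± 1.16 (SE, n = 3; limma adjusted p = 0.630), so it did not pass. By limma 0 of 9 permease genes were called in this set (2 at an unadjusted p under 0.05, PTR2 and GNP1), where 0.0178% of all genes rose and 0% fell. GNP1 was at -1.04 in SRB8, -0.86 in SSN2 and -0.86 in the column labelled SSN3, 3 of 3 below the median of the other strains (difference -1.11 ± 0.41, SE, n = 3; adjusted p = 0.999).

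Outside the sets, SRB2 stood at 4.91 for PTR2, CSE2 at 4.85, NUT1 at 2.23 and the column labelled SRB5 at -1.12, and in the tail PGD1 stood at 0.62, SIN4 at -2.73 and GAL11 at -3.71. Of the 10 columns labelled for Mediator genes, which include SSN3 and SRB5, 6 were called high for PTR2 and 1 low. Over all strains, these included, PTR2 was called high in 52 and low in 17. Whether the Mediator share exceeds that of all strains was not tested. The 3 highest of all strains for PTR2 were SRB8, SRB2 and CSE2. PTR2 lies on chromosome XI, whose genes were shifted by 1.31 in SRB8. In MAL33, the other column with that chromosome shifted (2.16), PTR2 was at 3.92. The tail and the kinase module compared directly differed in 0 of 9 genes by limma (0.107% of all genes higher and 0.196% lower), with 3 at an unadjusted p under 0.05. For PTR2 this difference was -4.44 ± 1.64 (SE, n = 3 and 3; adjusted p = 0.186).

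The strains lacking amino acid sensing factors gave 0 calls by limma over the set, with 2 genes at an unadjusted p under 0.05, and 0.0356% of all genes fell and 0.0713% rose. The 3 strains differed strongly among themselves. BAP2 stood at -6.23 in STP1, the lowest of all 267 strains, at -1.82 in STP2 and at -1.25 in DAL81 (difference -2.60 ± 0.66, SE, n = 3; limma adjusted p = 0.0611). TAT1 stood at -6.27 in STP1, the fourth lowest of all strains, at -0.99 in STP2 and at 0.81 in DAL81 (difference -1.74 ± 0.64, SE, n = 3; adjusted p = 0.704). STP1 was thus the outlying strain for both neighbours, and DAL81 lay on the other side of the median for TAT1. Without DAL81 BAP2 and TAT1 both passed, where 0.0713% of all genes fell and 0.125% rose. Without STP2 1 gene did, where 0.0536% of all genes fell and 0.0893% rose.

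Loss of STP1 did not lower the permease genes in general. In that strain 2 of 9 were low (BAP2 and TAT1) and 1 high (DIP5 at 2.84, the sixth highest of all strains), where 2.05% of all genes were low and 1.1% high. TAT2 was at -1.10, HIP1 at 0.17, AGP1 at 0.59, GNP1 at 0.83 and BAP3 at 0.33, all within 1 score unit of their own medians. PTR2 stood at -2.69 in STP1, -2.91 in STP2 and 1.36 in DAL81, against a median of -1.59. STP1 was also low for BAT1 (-3.54) and LEU1 (-4.32), of branched-chain amino acid synthesis, and high for BAT2 (0.72, against a median of -1.90).

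In the strain without LEU3, the regulator of the branched-chain pathway, BAP2 was low and TAT1 was not called. BAP2 stood at -5.22, the sixth lowest of 267, and TAT1 at -1.73, 1.36 below its median. BAP2 was the only permease gene of the 9 called in LEU3 (1 low), where 0.447% of all genes were low. Of the 10 branched-chain genes 5 were low: BAT1 at -6.85, LEU1 at -5.51, ILV3 at -3.84, ILV2 at -3.34 and LEU4 at -2.80. The LEU3 and STP1 columns had none of the marker genes low, and the deleted gene itself was at -2.86 in LEU3 and -2.87 in STP1, against medians of -0.27 in the other strains.

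CUP9 lacks the repressor of PTR2. PTR2 stood at 2.36 there, the 22nd highest of all strains and 3.95 above its median. The 8 amino acid permease genes all stood below their medians, and of the 9 genes 2 were low (DIP5 at -3.45 and AGP1 at -2.43) and 1 high, where 1.94% of all genes were low and 3.55% high. TAT1 was at -2.22, TAT2 at -2.07, HIP1 at -1.88, BAP2 at -1.47, GNP1 at -1.36 and BAP3 at -1.26. AAP1, an aminopeptidase gene, was at 3.74 in CUP9, the highest of all strains. This column had 3 of the 4 alpha and MET17 markers low, with STE3 at -6.64.

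Columns with such markers had lower scores for several permease genes in general. Over the 31 columns with at least 2 of the 4 low, the median of AGP1 was -0.99, against -0.09 in the columns with neither kind of marker low. DIP5 was at -0.96 against 0.02, BAP3 at -0.57 against 0.33, TAT1 at -0.89 against -0.28, HIP1 at -0.65 against -0.10 and GNP1 at -0.31 against 0.18. TAT2 (-0.90 against -0.65), BAP2 (-0.45 against -0.56) and PTR2 (-1.76 against -1.49) lay closer. In the 29 columns with low a-specific genes TAT2 had a median of -1.27 and HIP1 of -0.66, while AGP1 was at 0.17, BAP3 at 0.41, TAT1 at -0.34, BAP2 at -0.65, DIP5 at -0.06, GNP1 at 0.0021 and PTR2 at -1.69. CUP9, GLN3, GCN4, GAL4, the column labelled TAF14 and ISW2 are among the 31, and the part of the markers in their permease scores was not tested.

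TUP1 was low for TAT1 (-5.48), BAP2 (-4.45), DIP5 (-3.99), HIP1 (-2.19) and GNP1 (-1.93). TAT2 at -2.68 was the sixth lowest of all strains and AGP1 at -2.13 the tenth lowest, both just short of the distance for a call. PTR2 (2.24, called high) and BAP3 (1.18) stood on the other side. The strain thus divided the permeases, with 7 of 9 among the 10 lowest strains for their gene. Of the other genes of amino acid metabolism, 5 of 10 branched-chain and 5 of 14 aromatic genes were low in TUP1 (9.73% of all genes), with ILV3 at -5.55 and ARO9 at -4.53. In this column 4 of the 5 a-specific genes were low.

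In the strains without the GATA activators AGP1 and DIP5 were the lowest relative to the other strains, though the set of 2 gave 0 calls by limma (AGP1 and DIP5 at an unadjusted p under 0.05, with 0% of all genes higher and 0% lower). AGP1 stood at -2.55 in GAT1, the third lowest of all strains, and at -2.22 in GLN3, the eighth lowest (difference -2.34 ± 0.84, SE, n = 2; adjusted p = 0.597). DIP5 stood at -3.85 in GLN3, the fifth lowest, and at -1.26 in GAT1 (difference -2.51 ± 0.94, SE, n = 2; adjusted p = 0.613). Both strains lay below the median in both genes. In GLN3 2 of 9 were low (1.32% of all genes) and 1 high (2.75%): PTR2 was at 2.08, against -2.62 in GAT1. All 4 alpha and MET17 markers were low in GLN3 and none in GAT1.

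Loss of GZF3, a GATA repressor, put AGP1 at 3.51, the fourth highest of all strains, and GAP1, the general amino acid permease gene, at 3.81 (median 0.33). The column labelled DAL80, another GATA repressor, had AGP1 at 0.96 and none of the 9 called. Of all genes only 0.108% were low and 0.162% high in that column. CHA4, the activator of serine and threonine breakdown, had AGP1 at 3.12 and PTR2 at 1.93, 3.30 and 3.52 above their medians, and DIP5 at -2.14, 2.07 below. The deleted gene itself stood at -0.62 in the CHA4 column, against a median of -0.37 in the other columns. GCN4, the general activator of amino acid synthesis, had none of the 9 called, with scores between -0.33 for PTR2 and 1.11 for DIP5. In the GCN4 column 0.624% of all genes were low and 1.64% high. Of its markers STE3 was at -4.72, MF(ALPHA)1 at -2.54 and MET17 at -2.24. The RPD3L set gave 0 calls by limma, with 0 genes at an unadjusted p under 0.05 (0.232% of all genes rose and 0.16% fell), although SIN3 stood at 3.84 for AGP1 and SDS3 at 2.22 for BAP3. All 5 a-specific genes were low in both SIN3 and SDS3, SIN3 had a chromosome without AGP1 or BAP3 (V) shifted by 1.08, and MET17 was at 7.26 in SDS3. Without SIN3 0% of all genes rose and 0.0178% fell, and without PHO23 0.641% rose and 0.356% fell.

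The highest AGP1 scores came from HSF1 (6.06), which lacks the heat shock factor, and CDC73 (5.48), which lacks a subunit of the Paf1 elongation complex. SIN3 (3.84), GZF3 (3.51) and IXR1 (3.14) followed. In CDC73 4 of the 5 a-specific genes and 3 of the 4 alpha and MET17 markers were low, and their part was not tested. At the other end the lowest were the column labelled TAF14 (-2.67), SNF2 (-2.58) and GAT1 (-2.55). For DIP5 the highest were GCR1 (4.13), RAP1 (3.93) and UPC2 (3.13), and the lowest was the column labelled MCM1 (-5.54). HSF1, GCR1, RAP1 and MCM1 are among the 6 columns with a different number of digits.

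BAP3 was at 2.94 in PDR1 and GNP1 at 2.35 in PDR3, each the highest of 265 strains. PDR1 and PDR3 are related drug resistance factors, but PDR3 was not among the 5 highest strains for BAP3, nor PDR1 among those for GNP1. The next highest were SDS3 (2.22) for BAP3 and HAP3 (1.99) for GNP1. The lowest BAP3 scores were those of ISW2 (-1.68) and GAL4 (-1.50). For TAT1 the highest score by far was that of the column labelled ABF1, 3.94, where the next highest was 1.66 in MIG1. The genes of chromosome II were shifted by 1.21 in the ABF1 column, and BAP2 beside it stood at 0.17 there. In that column 4 of the 5 a-specific genes were low, with STE2 at -6.49. For TAT2 the highest was SAS5 (1.20) and for HIP1 SDD4 (1.44), close to their neighbours in rank.

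PTR2 was lowest in the column labelled RPN4 (-6.02), SNF5 (-5.98) and HIR3 (-5.64), and the next, the column labelled MCM1, stood at -4.62. In the column labelled RPN4 the transcript of CUP9, its repressor, was low as well (-3.11, median -0.46). Over strains the CUP9 transcript and PTR2 correlated at rho 0.23 (n = 267, CUP9's own strain left out). The transcripts of GAT1 and GLN3 correlated with AGP1 at rho 0.47 and 0.30 (n = 267 each), that of STP2 with BAP3 at 0.28 (n = 264), and those of STP1 and LEU3 with BAP2 at -0.09 and 0.04 (n = 266 each). All these points share their column, so its normalization and any fault of the array enter both values.

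Among themselves the permease genes formed 1 closer group and several loose members. TAT1 and TAT2 correlated at rho 0.66, TAT1 and HIP1 at 0.61 and TAT2 and HIP1 at 0.54 (all strains). AGP1 and DIP5 stood at 0.43, AGP1 and TAT2 at 0.43, and GNP1 and DIP5 at 0.39. Without the 26 strains of the sets the first 3 values were 0.64, 0.61 and 0.53. Over the 36 pairs rho ran from -0.06 to 0.66.

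The neighbours TAT1 and BAP2, low in the same strains, correlated at only 0.23 by Spearman's rho and at 0.61 by Pearson's r (n = 267), and at rho 0.15 without the 26 strains of the sets. The related pair BAP2 and BAP3 stood at 0.10 (n = 264). PTR2 stood apart from DIP5 (-0.06), GNP1 (-0.03) and HIP1 (0.01), and its highest value with any of the 8 was 0.18, with TAT2. These are descriptions over strains that share their columns with each other.

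**Figure D4:**
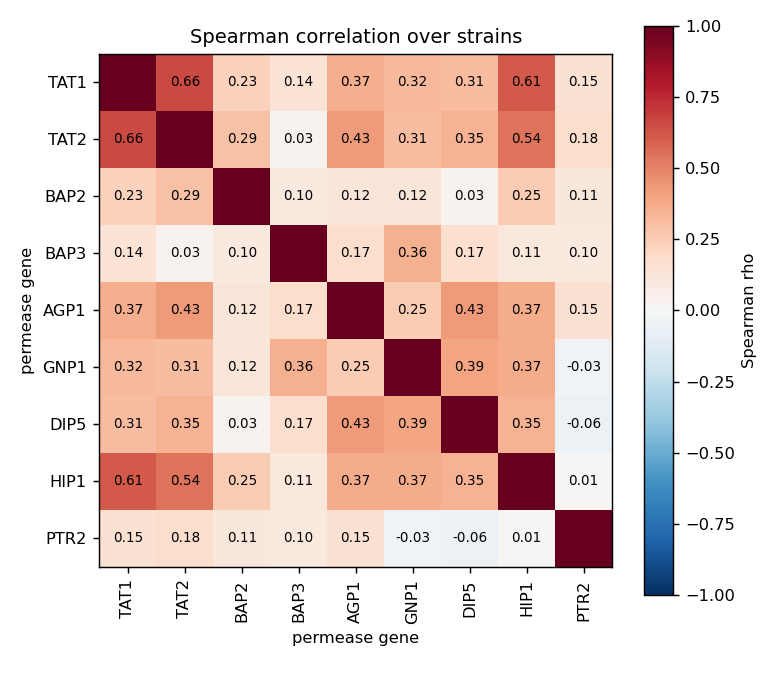
Spearman correlation of the scores of each pair of permease genes over at least 262 deletion strains (colour and printed value, rho). TAT1, TAT2 and HIP1 form the dark block (0.54 to 0.66), and the PTR2 row lies between -0.06 and 0.18.

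For each permease gene the 3 most similar of all tested genes over strains were taken by Spearman's rho. They were picked over these same strains, so likeness in single strains is not a separate test. TAT1 was nearest to FCY2 (0.73, all strains), the purine and cytosine permease gene, then to TAT2 (0.66) and STT3 (0.62), of protein glycosylation. TAT2 was nearest to SSH1 (0.71), of protein entry into the endoplasmic reticulum, KES1 (0.69) and SIM1 (0.67). FCY2 stood at -6.23 in SNF2, -6.20 in SNF6, -6.09 in the column labelled SPT20 and -3.86 in TUP1, where TAT1 was low too.

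BAP2 was nearest to YBR287W (0.74, n = 267), YPS1 (0.70), a cell surface protease gene, and CIP1 (0.66). YBR287W stood at -5.73 in SNF6, -5.63 in the column labelled SPT20, -4.75 in SIN4 and -4.53 in TUP1, but at -2.50 in STP1 and -0.67 in LEU3, where BAP2 was at -6.23 and -5.22. HIP1 was nearest to the translation genes DED1 (0.74) and EFT2 (0.73) and to PFK2 (0.71), of glycolysis. AGP1 was nearest to FLO5 (0.56), a flocculation gene, and to the ammonium permease genes MEP3 and MEP1 (0.56 each), and DIP5 to MEP3 (0.52), OPT1 (0.46), an oligopeptide transporter gene, and PMT1 (0.44).

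In the GATA strains MEP3 stood at -2.74 in GLN3, -2.13 in GAT1 and 2.31 in GZF3, against a median of -0.52. MEP1 stood at -2.29 in GLN3, -1.74 in GAT1 and 1.05 in GZF3, against a median of -0.46. Both ammonium permease genes lay on the same side of their medians as AGP1 in these 3 strains. They were picked for their correlation with AGP1 over all strains, these 3 included, so this is not a separate GATA result. GNP1 and BAP3 had no close neighbour: the highest rho was 0.47 for GNP1 with ICE2 (n = 265) and 0.48 for BAP3 with ENT4 (n = 263).

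The genes most similar to PTR2 were peptidase genes. DUG1, for a dipeptidase, stood at rho 0.66, YFR006W, for a putative prolidase, at 0.58, and AAP1, for an aminopeptidase, at 0.56 (all strains). They were picked for their correlation with PTR2 over these same strains, so the following counts describe that choice and are not a separate result. In the 52 strains with PTR2 called high, DUG1 lay above its own median in 49, YFR006W in 46 and AAP1 in 44. In the 17 with PTR2 called low, DUG1 lay below in 15, YFR006W in 12 and AAP1 in 15. Their scores spread less than those of PTR2, with SDs of 0.91, 0.89 and 1.10.

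The match did not hold in every strain. SRB2 was the highest of all strains for DUG1 (2.19) and next to the highest for PTR2, but in CSE2 (PTR2 at 4.85) and SWI3 (PTR2 at 3.97) DUG1 stood at -0.92 and -0.91, its median being -0.91. The column labelled RPN4, lowest for PTR2, was at -2.67 for DUG1, -4.01 for YFR006W and -3.14 for AAP1. STP2 was at -2.50 for DUG1 and -2.40 for AAP1, among the 10 lowest of all strains in both, while STP1 was at -1.07 and 1.07.

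**Figure D5:**
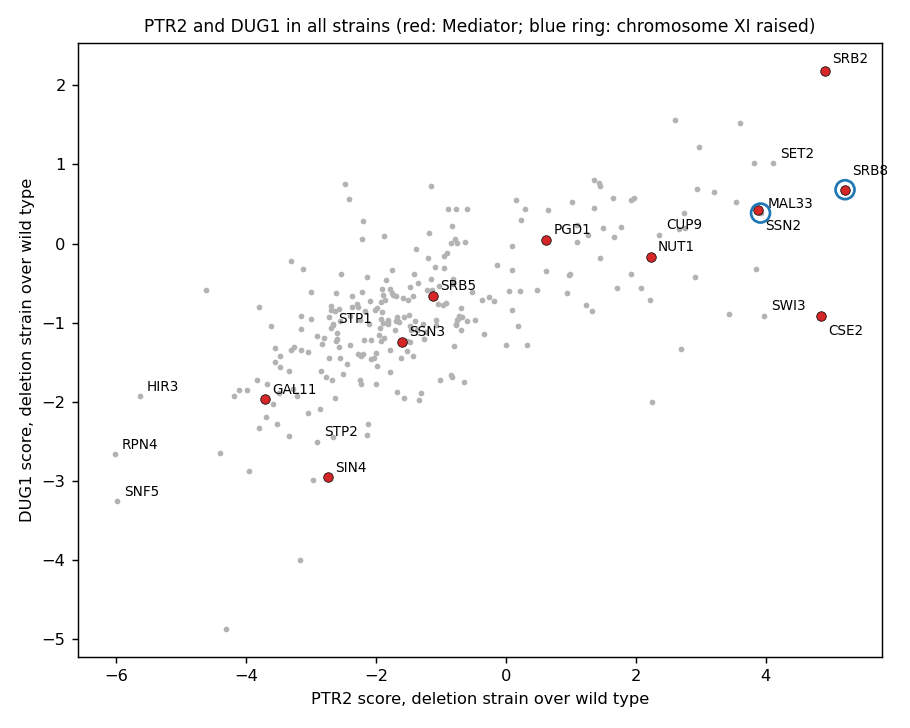
Score of PTR2 (x axis) against that of DUG1 (y axis), both in score units, in all deletion strains (grey), with the 10 columns labelled for Mediator genes in red and columns with chromosome XI raised ringed in blue. Most strains follow 1 rising band, SRB2 lies at its top, and CSE2 and SWI3 lie to the right of it.

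Other lists of genes for amino acid uptake and metabolism are read against the shares of all genes, 21.2% falling and 11.3% rising in SWI/SNF strains and 6.75% and 3.42% in SAGA strains. In the SWI/SNF strains 2 of 14 other permease genes fell, OPT1 by -1.90 ± 0.35 (SE) and LYP1, for lysine, by -1.12 ± 0.38 (SE), and 2 rose, MMP1 by 1.85 ± 0.42 (SE) and GAP1 by 0.81 ± 0.31 (SE; all n = 5). The share that fell, 2 of 14, was not above that of all genes, and their median difference was 0.08. Of the 6 genes of the sensing pathway only PTR3, a sensor subunit, was called, and it rose by 1.30 ± 0.28 (SE, n = 5). In SAGA strains 0 of 14 other permease genes and 0 of 6 sensing genes were called by limma, with 2 and 1 at an unadjusted p under 0.05.

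Of the 5 genes that bring permeases to the surface or remove them, 2 fell without SWI/SNF: RSP5, the ubiquitin ligase that marks permeases, by -2.09 ± 0.36 (SE) and its adaptor BUL2 by -0.64 ± 0.20 (SE; n = 5). Of the 10 branched-chain genes 4 fell, where 21.2% of all genes did, led by ILV3 (-2.23 ± 0.54, SE) and ILV1 (-2.22 ± 0.33, SE). Of the 14 aromatic genes 6 fell and 1 rose, and the largest were ARO9 (-3.85 ± 0.66, SE) and ARO10 (-3.48 ± 0.46, SE), of aromatic amino acid breakdown. In SAGA strains ARO9 (-3.73 ± 0.66, SE) and ARO10 (-2.08 ± 0.46, SE) fell too, with 1 of 10 branched-chain genes (6.75% of all genes), ILV3 (-1.97 ± 0.54, SE; n = 5 throughout). ARO9 and ARO10 lay below the median of the other strains in 5 of 5 strains of each set.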

How the data were processed

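Total RNA of 268 deletion strains (Cy5) and wild type (Cy3) was compared on 2-channel arrays, per the labels. The authors' deposited table holds 1 column of values for each strain. The sources used here give neither its unit and log base nor its background correction and normalization, so the deposited values are treated as a score, and the planned tests, written for log ratios, apply to that score. Precision is limited by the number of arrays.

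Genes with a value in at least 80% of columns were tested (5615). Missing values made up 1.25%, and each column's own deleted gene was left out. Gene names came from the R64 reference table. limma 3.58.1 in R 4.3.3 fitted all 268 columns together, a mean for each set, moderated by eBayes, with Benjamini-Hochberg adjustment over all genes tested and a threshold of 0.05. The spread is pooled and comes mostly from the 242 strains outside the sets. Summaries used Python 3.11.15 with pandas 2.3.3 and numpy 2.4.6, and the fit was tested on simulated data.

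Named were all 9 genes, their 3 most similar genes, their 5 lowest and 5 highest strains, 18 regulator strains, and at most 4 called genes per other list and set. FCY2, DUG1, MEP1, TIP1 and other genes given strain by strain were chosen after their values were seen. The members and lists were chosen with earlier results of these data known. Alternatives were quantile normalization, column centring, complete genes only, robust moderation, leaving out kinds of columns or single strains, and other call distances.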

Additional observations from a re-analysis of the deposited data

Results flagged for a closer look

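In 4 of 27 groups of 5 strains checked, the lowest or highest strain stood apart from the other 4 by more of the range than Dixon's limit of 0.71 allows, where chance gives about 1 in 20. TAT1 in SNF11 was at -1.32 while the other 4 SWI/SNF strains lay between -7.11 and -5.46. PTR2 in SWI3 was at 3.97, with the other 4 between -5.98 and -3.17. AGP1 in HFI1 was at 2.31, with the other SAGA strains between -1.12 and -0.30. BAP3 in SDS3 was at 2.22, with the other RPD3L columns between 0.09 and 0.35. In SDS3 all 5 a-specific genes were at -2 or lower and MET17 was at 7.26, in HFI1 and SWI3 at least 4 of the 5 were, and in SNF11 1 was.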

How the results depend on the processing

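No paired analysis was possible because the labels give each deletion 1 column and no replicate number. The SWI/SNF count of 6 permease genes lay between 5 and 7 when each strain was left out and at 0 without columns with low markers, which leaves 1 strain. The count was 7 without columns with low MET17 or alpha markers alone, an alternative chosen after seeing the data, which gave 5 for SAGA. The SAGA count of 6 fell to 0 with quantile normalization and without columns with low markers (where BAP2 turned to 0.047), to 1 without columns with a high deleted gene, and to between 1 and 6 when each strain was left out. It was 1 without the column labelled SPT20, 1 without HFI1 and 4 without the column labelled SPT3. The Mediator tail count of 1 became 0 with quantile normalization and with complete genes only (which does not test BAP2), 3 without columns with low markers, and between 0 and 2 when each strain was left out: 0 without SIN4 and 2 without PGD1. Amino acid sensing went from 0 to 1 without the columns of 6 significant digits and 1 without columns with low markers, and lay between 0 and 2 when each strain was left out. SWI/SNF against SAGA went from 0 to 1 without the columns of 6 significant digits and lay between 0 and 4 when each strain was left out, at 4 without SNF11 and 4 without the column labelled SPT20. Tail against kinase went from 0 to 1 without columns with low markers and lay between 0 and 1 when each strain was left out, at 1 without GAL11 and 1 without PGD1. The kinase, RPD3L and GATA sets gave 0 throughout. Low single values went from 93 to 336 at a distance of 1 and 40 at 3, and high ones from 89 to 295 and 50. The cause of these shifts was not tested, apart from the fewer strains or genes named. Among named single results, 40 settings lost a call, 1 reversed and 3 correlations moved. By Pearson's r, TAT2 with HIP1 stood at 0.65, AGP1 with DIP5 at 0.32 and TAT2 with AGP1 at 0.29.

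Shares of all genes, rising then falling, moved too. Quantile normalization gave 5.13% and 4.22% for SWI/SNF (11.3% and 21.2% without it), 0.748% and 0.196% for SAGA (3.42% and 6.75%), 0.107% and 0.0356% for the tail (3.72% and 4.15%), 0% and 0% for RPD3L (0.232% and 0.16%) and for tail against kinase, and 0.0534% and 0% for SWI/SNF against SAGA. Leaving out columns with low markers gave 7.09% and 7.30% for the tail and 0.534% and 0.855% for tail against kinase. For amino acid sensing it gave 0.0891% and 0.0534%. It leaves 1 SWI/SNF and 2 SAGA columns. Leaving out columns with low MET17 or alpha markers alone gave 11.8% and 21.4% for SWI/SNF and 2.14% and 4.33% for SAGA. SAGA had 0.321% and 0.267% without columns with a high deleted gene, 0.196% and 0.463% without the column labelled SPT20 and 0.196% and 1.53% without HFI1. Without the column labelled SPT3 it had 2.23% and 4.19%. RPD3L had 0% and 0.0178% without SIN3 and 0.641% and 0.356% without PHO23. The tail had 0% and 0% without SIN4 and 4.20% and 6.09% without PGD1. SWI/SNF against SAGA had 1.99% and 9.80% without SNF11 and 0.766% and 3.94% without the column labelled SPT20. Tail against kinase had 0.321% and 0.962% without GAL11 and 0.801% and 1.44% without PGD1. Without the columns of 6 significant digits SWI/SNF against SAGA had 0.837% and 3.31%, and amino acid sensing 0.0891% and 0.0534%. Subtracting column medians gave 0.142% and 0.196% for RPD3L and 0.0890% and 0.445% for tail against kinase.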

Other observations

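In DAL82, which lacks an activator of allantoin use, the other uptake genes DAL5, UGA4 and PUT4 stood at -2.37, -2.26 and -2.01, against medians of 0.0032, 0.20 and 0.37, and MUP1, a methionine permease gene, at 1.29 against -0.82, while each of the 9 permease genes lay within 2 score units of its median. In SFP1, which lacks a factor of ribosome synthesis, ILV3 stood at -6.10 and ARO4 at -5.43, against medians of -1.31 and -0.39. The permease gene AGP2 stood at 3.82 there (median 0.09), PTR2 at 2.69 and DIP5 at -2.91. Of all genes 2.89% were low and 4.55% high in the DAL82 column, and 9.72% were low and 13.6% high in the SFP1 column. DAL82 and SFP1 are single columns with no replicate.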
